A study of Homo sapiens with 4 samples.

Results

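The let-7 family was taken as the 10 let-7 and miR-98 names listed among the mature miRNAs of the count table, out of 843 names in all. The members were chosen by name and not by their values, and 9 of them are 5p strands that carry the family sequence. The 10th, hsa-let-7d-3p, is the strand from the other side of the let-7d hairpin. MiRNA sequencing was done after RNA pull-down in HGC27 and in AGS, both established cell lines from human gastric cancer, and the comparison asked which miRNAs were recovered with a probe to the untranslated 3′ end (3′-UTR) of the fibronectin mRNA FN1. In such an assay a biotinylated RNA transcribed in vitro is held on streptavidin beads, mixed with cell lysate and washed, and the RNA that stays on the beads is sequenced. There were 4 groups of 1 library each, namely HGC27 with the negative probe, HGC27 with the positive probe, AGS with the negative probe and AGS with the positive probe. All 4 groups, the negative probe included, came from cells in which a lentivirus stably overexpressed the FN1 3′-UTR, and no library from cells without it was used here. The methods put biotinylated antisense RNA on the beads and the labels name a transcript or its antisense, but neither ties these to the words positive and negative, and the ratios carry no statement on the strand.

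MiRNAs are short RNAs that are cut from hairpin precursors and loaded into Argonaute proteins, where the bases near their 5′ end, the seed, pair with target mRNAs and repress them. The let-7 family is conserved from worms to humans, is scarce in stem cells and accumulates as cells differentiate, and is widely described as a tumour suppressor family that represses HMGA2, RAS genes and LIN28. LIN28 in turn binds let-7 precursors and blocks their maturation. In humans the family is made from hairpins on several chromosomes, some of them side by side with hairpins of the miR-99/100 and miR-125 families.

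The mature sequences of the members are shown because all differences described here are between strands that differ by a few bases outside the seed. They are written 5′ to 3′ with bases 2 to 8, the seed, in capitals, and all 10 were identical to the RefSeq mature sequences (GRCh38.p14).
hsa-let-7a-5p: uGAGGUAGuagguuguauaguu
hsa-let-7b-5p: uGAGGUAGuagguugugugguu
hsa-let-7c-5p: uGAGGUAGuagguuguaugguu
hsa-let-7d-5p: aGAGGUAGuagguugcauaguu
hsa-let-7e-5p: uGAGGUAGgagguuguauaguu
hsa-let-7f-5p: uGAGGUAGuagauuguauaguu
hsa-let-7g-5p: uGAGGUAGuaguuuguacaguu
hsa-let-7i-5p: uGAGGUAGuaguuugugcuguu
hsa-miR-98-5p: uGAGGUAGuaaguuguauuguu
hsa-let-7d-3p: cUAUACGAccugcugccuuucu
The 9 members on the 5p arm shared the seed GAGGUAG and a length of 22 bases, and 0 other entries of the table carried that seed at bases 2 to 8. Among the 36 pairs of these members, 4 differed at 1 base, 10 at 2 bases and 11 at 3 bases, and the most distant pair, let-7d-5p and let-7i-5p, differed at 6. The pairs 1 base apart were let-7a-5p and let-7c-5p (A19G), let-7a-5p and let-7e-5p (U9G), let-7a-5p and let-7f-5p (G12A), and let-7b-5p and let-7c-5p (G17A). Positions are counted from 1 at the 5′ end, with the base of the first named member first. How the authors treated a read that matched several members is not given in the sources used here, so reads of members 1 base apart may be shared between them.

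The hairpins lie at 8 places on GRCh38.p14. On chromosome 9, plus strand, let-7a-1 (mature bases at chr9:94175962-94175983), let-7f-1 (chr9:94176353-94176374) and let-7d (chr9:94178841-94178862) follow each other in an intron of the non-coding transcript AL158152.2, with the let-7d-3p strand at chr9:94178895-94178916. On chromosome 22, let-7a-3 (chr22:46112752-46112773) and let-7b (chr22:46113691-46113712) lie in an exon of MIRLET7BHG, plus strand. On chromosome 19, let-7e (chr19:51692793-51692814) sits between miR-99b and miR-125a in an intron of SPACA6, plus strand. On chromosome 21, let-7c (chr21:16539838-16539859) follows miR-99a in an intron of MIR99AHG, plus strand. On chromosome 11, let-7a-2 (chr11:122146568-122146589) lies next to miR-100 in an intron of MIR100HG, minus strand. On chromosome X, miR-98 (chrX:53556299-53556320) and let-7f-2 (chrX:53557246-53557267) share an intron of HUWE1, minus strand. The hairpins of let-7g (chr3:52268336-52268357, minus strand, intron of WDR82) and let-7i (chr12:62603691-62603712, plus strand, intron of AC048341.1) stand alone. Since let-7a-5p is made from 3 of these hairpins and let-7f-5p from 2, their counts cannot be assigned to a single place.

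The libraries held 1296853 to 2955078 miRNA counts. Values are given as raw counts and as the deposited score, which is tags per 1000000 rounded to whole numbers. A single miRNA, miR-372-3p, took 80.8% of the counts of AGS with the negative probe and 37.5% with the positive probe, but 0.178% and 0.300% in HGC27. These are shares of the table totals. In AGS those totals were only 41.2% and 35.7% of the divisors recovered for the score, negative probe first. The share of miR-372-3p in what the AGS scores are divided by is therefore smaller. Of the markers fixed for describing the lines, the epithelial miRNAs (miR-200 family, miR-141 and miR-203a) summed to scores of 780 and 371 in HGC27 and 10294 and 821 in AGS, negative probe first. The mesenchymal miRNAs (miR-199a, miR-214, miR-143 and miR-145) summed to 3521 and 3616 in HGC27, where 5 of 5 were listed, against 11 and 39 in AGS, where 4 and 3 were. The stem cell miRNAs miR-371a, miR-372 and miR-373 summed to 903 and 1428 in HGC27 and to 336754 and 136642 in AGS. The epithelial and stem cell sums thus moved with the probe as well as with the line. The mesenchymal sum was near equal between the probes in HGC27, but its members moved in opposite directions there. In HGC27 the log2 ratio of score + 1, positive over negative probe, was -6.91 for miR-199a-3p and 2.26 for miR-143-3p. The part of all these markers in the results was not tested. As each group had 1 library, differences within a line or a probe have no replicate check, and all intervals cover counting error only.

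The family was led by 4 members, let-7a-5p, let-7f-5p, let-7g-5p and let-7i-5p, in 3 of the libraries, and in AGS with the positive probe let-7b-5p and let-7e-5p came before let-7a-5p. In HGC27 the most counted member was let-7f-5p with both probes, in AGS with the negative probe it was let-7g-5p and in AGS with the positive probe it was let-7i-5p. The 4 most counted members of a library held between 83.5% and 91.9% of the family's counts. At the other end, miR-98-5p was last in both HGC27 libraries and let-7c-5p was last in both AGS libraries.

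let-7f-5p had scores of 11546 in HGC27 with the negative probe and 47547 with the positive probe, and of 1394 and 31743 in AGS. let-7a-5p had scores of 11304 and 42312 in HGC27, and of 272 and 11270 in AGS. These 2 strands, 1 base apart and partly made from the same transcript, were near equal in HGC27, where let-7f-5p had 1.02 counts (95% CI 1.01 to 1.04) for each let-7a-5p count with the negative probe and 1.12 with the positive probe. In AGS let-7f-5p led by 5.12-fold (95% CI 4.88 to 5.38) with the negative probe and by 2.82-fold (2.79 to 2.85) with the positive probe. The near equality of the pair was thus seen in HGC27 and not in AGS.

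let-7g-5p had scores of 9501 and 26055 in HGC27 and of 1694 and 19721 in AGS, negative probe first. let-7i-5p had scores of 6309 and 38524 in HGC27 and of 1095 and 50621 in AGS. Both are made from a single hairpin that stands alone, and their order turned with the probe in both lines. With the negative probe let-7i-5p had 0.664 counts (95% CI 0.652 to 0.677) for each let-7g-5p count in HGC27 and 0.647 (0.629 to 0.665) in AGS. With the positive probe it had 1.48 (1.46 to 1.49) in HGC27 and 2.57 (2.55 to 2.59) in AGS, a change of 2.23-fold and 3.97-fold. A ratio of 2 members within a library does not depend on how the library is scaled.

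The less counted members came in other orders in the 2 lines. let-7b-5p had scores of 1693 and 5205 in HGC27 and of 140 and 17343 in AGS. let-7e-5p had scores of 633 and 3238 in HGC27 and of 160 and 11611 in AGS. Both had their lowest score in AGS with the negative probe and their highest in AGS with the positive probe, so that the HGC27 libraries lay between the 2 AGS libraries. let-7c-5p had scores of 2698 and 10203 in HGC27 but of 5 and 28 in AGS, on 38 and 121 counts. It was the member in which the lines stood farthest apart, and in AGS it was 1.29% of the counts of its 1-base neighbours let-7a-5p and let-7b-5p with the negative probe and 0.0990% with the positive probe, against 20.8% and 21.5% in HGC27. let-7d-5p had scores of 499 and 1063 in HGC27 and of 76 and 371 in AGS, and miR-98-5p had scores of 150 and 720 in HGC27 and of 11 and 264 in AGS.

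**Figure D1:**
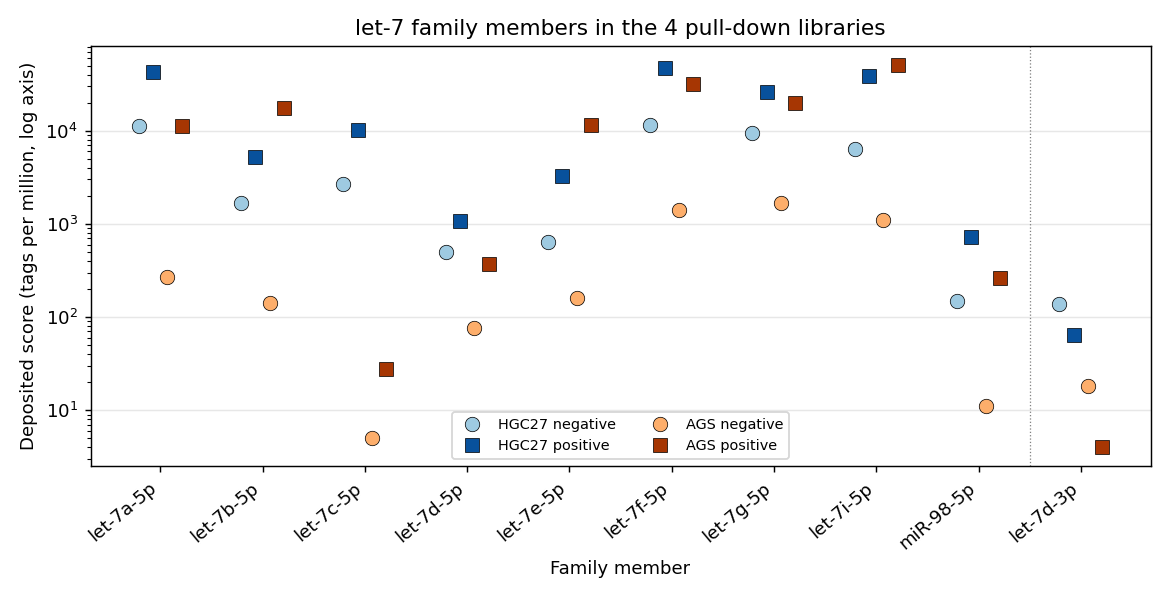
The deposited score (tags per 1000000, log axis) of each family member in the 4 libraries, with circles for the negative probe, squares for the positive probe, blue for HGC27 and orange for AGS, and 1 library per point. For the 9 members left of the dotted line the square lies above the circle in both lines, for let-7d-3p on the right it lies below, and let-7c-5p shows the widest gap between the lines (scores of 2698 and 10203 against 5 and 28).

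The composition of the family, each member's share of the summed counts of the 9 members on the 5p arm, moved little with the probe in HGC27 and more in AGS. Between the probes, 9.44% of the family's counts would have to change member in HGC27 and 29.1% in AGS, and between the lines 26.9% with the negative probe and 28.8% with the positive probe. let-7i-5p held 14.2% of the family (Wilson 95% CI 14.0 to 14.4) in HGC27 with the negative probe and 22.0% (21.9 to 22.1) with the positive probe. In AGS it held 22.6% (22.2 to 23.0) and 35.4% (35.3 to 35.5). let-7g-5p went the other way, from 21.4% to 14.9% in HGC27 and from 34.9% to 13.8% in AGS. These opposite moves of let-7i-5p and let-7g-5p were seen in both lines.

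The other shares moved in the same direction in both lines for some members and in opposite directions for others. let-7b-5p held 3.82% and 2.98% of the family in HGC27 and 2.88% and 12.1% in AGS, negative probe first. let-7a-5p held 25.5% and 24.2% in HGC27 and 5.61% and 7.88% in AGS, so its share was set apart by line and less by probe. let-7f-5p held between 22.2% and 28.8% over the 4 libraries. let-7e-5p gained share with the positive probe in both lines, from 1.43% to 1.85% in HGC27 and from 3.30% to 8.12% in AGS. let-7d-5p lost share in both, from 1.12% to 0.608% and from 1.56% to 0.259%. let-7c-5p held 6.09% and 5.83% in HGC27 and 0.109% and 0.0198% in AGS, and miR-98-5p held between 0.185% and 0.412% in the 4 libraries.

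**Figure D2:**
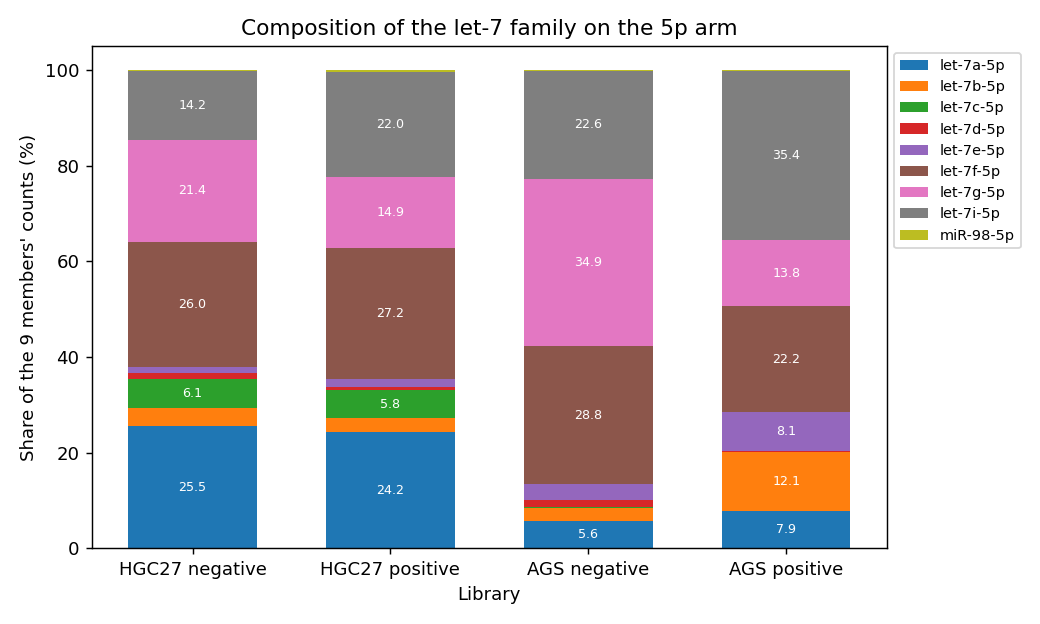
Stacked bars of the share (%) of each member in the summed counts of the 9 members on the 5p arm, 1 bar per library, with shares of at least 5% printed. The HGC27 bars look alike (let-7f-5p at 26.0% and 27.2%), while in AGS let-7g-5p shrank from 34.9% to 13.8% and let-7b-5p grew from 2.88% to 12.1% between the negative and the positive probe.

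Recovery with the positive over the negative probe was taken as the ratio of score + 1, and a ratio of at least 2 was called higher and one of at most 0.5 lower. In HGC27 all 9 members on the 5p arm were higher with the positive probe, where 28.1% of the 366 entries that reached 10 counts in either library were. In AGS all 9 were higher too, where 40.4% of 230 entries were. The median log2 ratio of the 9 members was 1.92 in HGC27 against -0.12 over all those entries, and 4.51 in AGS against 0.42. The lines thus shared the direction for all 9 members while the sizes differed. When AGS was scaled to totals without miR-372-3p, let-7c-5p and let-7d-5p kept their direction but had log2 ratios of 0.91 and 0.79, under the call, which left 7 of the 9 members, against 27.8% of entries at that scaling. In the other scalings all 9 stayed past it in both lines. At a ratio of at least 4 there were 4 members in HGC27, where 11.5% of entries passed, and 9 in AGS, where 27.4% did.

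The order of the members by ratio differed between the lines, with let-7d-5p lowest in HGC27 and let-7d-5p and let-7c-5p tied as the lowest in AGS. In HGC27 the ratios ran from 2.13 (let-7d-5p, exact 95% CI of the fold 2.00 to 2.27) through 2.74 (let-7g-5p), 3.07 (let-7b-5p), 3.74 (let-7a-5p), 3.78 (let-7c-5p), 4.12 (let-7f-5p), 4.77 (miR-98-5p) and 5.11 (let-7e-5p) to 6.11 (let-7i-5p, 6.01 to 6.20), so that the highest was 2.87 times the lowest. In AGS they ran from 4.83 (let-7d-5p, 4.44 to 5.41, and let-7c-5p, 3.69 to 7.92) through 11.6 (let-7g-5p), 22.1 (miR-98-5p), 22.8 (let-7f-5p), 41.3 (let-7a-5p), 46.2 (let-7i-5p) and 72.1 (let-7e-5p) to 123 (let-7b-5p, 117 to 132), a spread of 25.5-fold. let-7b-5p was thus first in AGS and seventh in HGC27, whereas let-7e-5p was second in both.

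Of the 36 pairs of members, the counting intervals of the folds did not overlap in 34 pairs in each line. These intervals cover counting error only and are narrow where counts are high. The same count was not made over pairs of other entries, so it is not read as a trait of the family. The pairs that overlapped in HGC27 were let-7a-5p with let-7c-5p and let-7e-5p with miR-98-5p, and in AGS let-7c-5p with let-7d-5p and let-7f-5p with miR-98-5p. Among members that differ by 1 base, the wide gaps were those of let-7c-5p in AGS, where it had 38 and 121 counts. let-7b-5p and let-7c-5p (G17A) had ratios of 3.07 and 3.78 in HGC27 but 123 and 4.83 in AGS. There the count of let-7b-5p per let-7c-5p count went from 26.4 (95% CI 19.1 to 37.5) to 612 (512 to 738). let-7a-5p and let-7c-5p (A19G) had 3.74 and 3.78 in HGC27 but 41.3 and 4.83 in AGS. The other 1-base pairs lay closer in AGS. let-7a-5p and let-7f-5p (G12A) had 3.74 and 4.12 in HGC27 and 41.3 and 22.8 in AGS. let-7a-5p and let-7e-5p (U9G) had 3.74 and 5.11 in HGC27 and 41.3 and 72.1 in AGS. The bases G and C made up 31.8% to 45.5% of the 9 strands, and let-7b-5p, with the most, was first in AGS and near the lower end in HGC27.

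**Figure D3:**
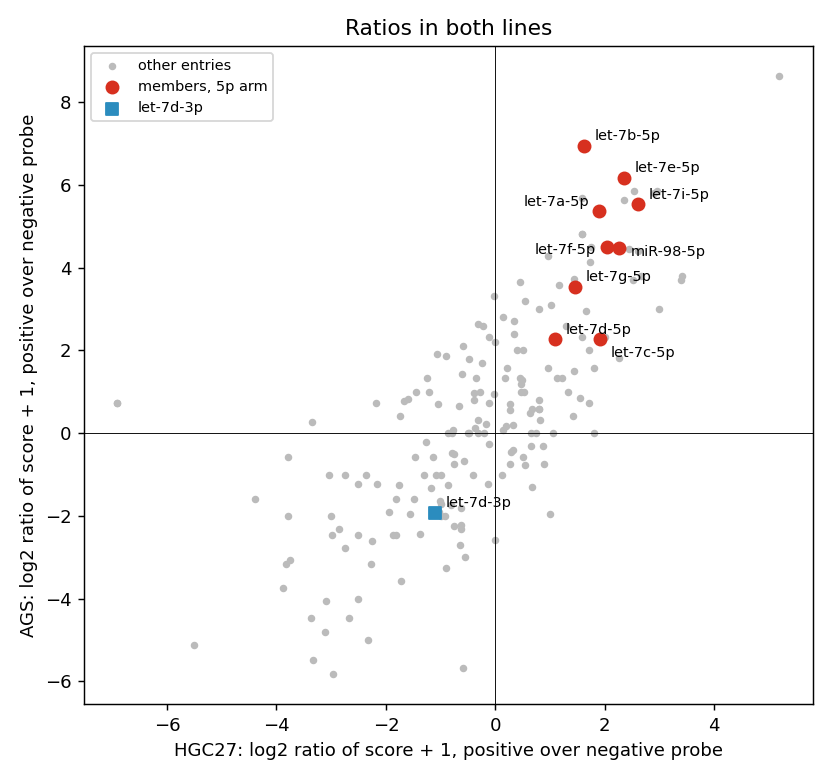
The log2 ratio of score + 1, positive over negative probe, in HGC27 (horizontal) and AGS (vertical) for 193 entries that reached 10 counts in each line, with the 9 members on the 5p arm in red, let-7d-3p as a blue square and other entries in grey. The red points lie at 1.09 to 2.61 in HGC27 and 2.27 to 6.94 in AGS, all above 0 in both, and let-7d-3p lies below 0 in both at -1.10 and -1.93.

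The only test with more than 1 library per probe fitted all 4 libraries in edgeR with the cell line as covariate, so that the 2 lines stood in for replicates, with 1 residual degree of freedom. All 9 members on the 5p arm had a positive probe effect, with log2 fold changes between 1.28 (let-7d-5p, SE 1.16) and 3.88 (let-7b-5p, SE 2.03). Each SE given for edgeR was worked back from the log2 fold change and the quasi-likelihood F statistic. It is not a spread measured between the lines. By the quasi-likelihood test in edgeR 0 of the 9 passed an adjusted p of 0.05, where 4.06% of the 271 entries tested were called higher with the positive probe. Without adjustment 2 of the 9 had a p under 0.05 in edgeR, as did 20.3% of entries in either direction, so this count was near the background. The lowest adjusted p in edgeR was 0.0913 for hsa-miR-98-5p (3.02, SE 1.21), followed by 0.159 for hsa-let-7e-5p (3.86, SE 1.76), and hsa-let-7i-5p had 0.317 (3.66, SE 2.16). The DESeq2 Wald test on the same entries called 8 of the 9 members higher, where it called 10.3% of the 271 entries. That share counts 32 entries to which it gave no adjusted p and which could not be called. The exception among the members was let-7d-5p, with an adjusted p of 0.147 in the DESeq2 Wald test. The calls of the members thus depended on the test, while the sign was positive for all 9 members in each of the 8 fits.

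The strand let-7d-3p ran against its own hairpin partner. It had 400 counts in HGC27 with the negative probe and 177 with the positive probe, and 130 and 17 counts in AGS, or scores of 138 and 64 and of 18 and 4. In HGC27 the ratio of let-7d-3p was 0.468 (exact 95% interval of the fold from 0.388 to 0.557), where 33.3% of entries were lower, and with DESeq2 size factors its log2 ratio was -0.91, short of the call. The ratio was 0.263 in AGS (0.124 to 0.366 for the fold of 0.220 before rounding), where 31.3% were. Of both let-7d strands, the 3p strand made up 21.6% (Wilson 95% CI 19.8 to 23.6) and 19.3% (16.5 to 22.5) with the negative probe in HGC27 and AGS, and 5.68% (4.92 to 6.55) and 1.06% (0.664 to 1.69) with the positive probe. The arm balance was therefore alike in both lines with the negative probe, and the count of let-7d-5p per let-7d-3p count was higher with the positive probe by 4.58-fold (exact 95% CI 3.78 to 5.56) in HGC27 and by 22.3-fold (13.2 to 39.8) in AGS.

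As both strands come from the same hairpin and were counted in the same library, this comparison does not depend on scaling. In the edgeR fit over both lines let-7d-3p had a probe log2 fold change of -2.01 (SE 1.16, adjusted p = 0.304). Of the 10 opposite strands of the other members, 4 were listed, all with few counts. let-7c-3p had 12 and 15 counts in HGC27 and 0 in both AGS libraries, and let-7e-3p had 3 and 10 in HGC27 and 5 and 11 in AGS, negative probe first. let-7b-3p had 6 and 2 counts in HGC27 and let-7i-3p 2 and 0, and both had 0 in AGS. Even so, some folds with the positive probe lay below that of the 5p partner beyond counting error. In HGC27 the exact 95% interval was 0.0346 to 1.96 for let-7b-3p against 2.98 to 3.18 for let-7b-5p, and 0.575 to 3.08 for let-7c-3p against 3.69 to 3.88 for let-7c-5p. For let-7e-3p it was 1.18 to 13.6 in AGS against 68.5 to 77.1 for let-7e-5p, while in HGC27, at 0.903 to 19.8, it took in that of let-7e-5p (4.86 to 5.38). For let-7i-3p, on 2 and 0 counts, the upper bound in HGC27 was 5.60 against 6.01 to 6.20 for let-7i-5p. That 0 stands for a blank, and the lowest count listed was 2, so a single count may be hidden. The case of let-7i-3p is therefore not taken as beyond counting error.

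Hairpins that lie beside let-7 hairpins gave 5p strands with other probe ratios. In the chromosome 19 group, 153 bases separate the mature strands of miR-99b and let-7e and 453 bases those of let-7e and miR-125a. miR-99b-5p, of the miR-99/100 family, had scores of 29357 and 6149 in HGC27 and of 15840 and 2621 in AGS, negative probe first. miR-125a-5p, a relative of the worm timing miRNA lin-4, had scores of 4137 and 4088 in HGC27 and of 2132 and 21298 in AGS. The ratios were 0.209 for miR-99b-5p, 5.11 for let-7e-5p and 0.988 for miR-125a-5p in HGC27, and 0.166, 72.1 and 9.99 in AGS, so that the 3 neighbours came in the same order in both lines. For each miR-99b-5p count there were 0.0216 let-7e-5p counts with the negative probe and 0.527 with the positive probe in HGC27, a change of 24.4-fold (95% CI 23.2 to 25.7). In AGS the same quantity went from 0.0101 to 4.43, a change of 439-fold (413 to 467). The opposite strand of the same hairpin, miR-99b-3p, did not share the direction of miR-99b-5p. Its log2 ratio was 1.45 in HGC27, within the range of the let-7 members there, and 1.51 in AGS, below all of them. The contrast with let-7e-5p is thus one of the 5p strand and not of the hairpin.

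On chromosome 21 let-7c and miR-99a are 715 bases apart. miR-99a-5p had 26405 and 7485 counts in HGC27 and 35 and 30 in AGS, and its ratio in HGC27 was 0.298 against 3.78 for let-7c-5p. The count of let-7c-5p per miR-99a-5p count went from 0.297 to 3.77 in HGC27, a change of 12.7-fold (95% CI 12.2 to 13.1), and from 1.09 (0.668 to 1.77) to 4.03 (2.69 to 6.23) in AGS, a change of 3.71-fold (2.02 to 6.83). miR-100-5p, next to let-7a-2 on chromosome 11, had scores of 20997 and 7735 in HGC27 and of 161 and 322 in AGS. miR-125b-5p, made from hairpins on chromosomes 11 and 21 farther from the let-7 hairpins, had 6856 and 5373 counts in HGC27 and 24 and 31 in AGS. In HGC27 the ratios of the 5 neighbouring 5p strands lay between 0.209 and 0.988, below those of the 9 members. In AGS, by contrast, miR-125a-5p, at 9.99, lay above let-7c-5p and let-7d-5p, at 4.83 each.

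**Figure D4:**
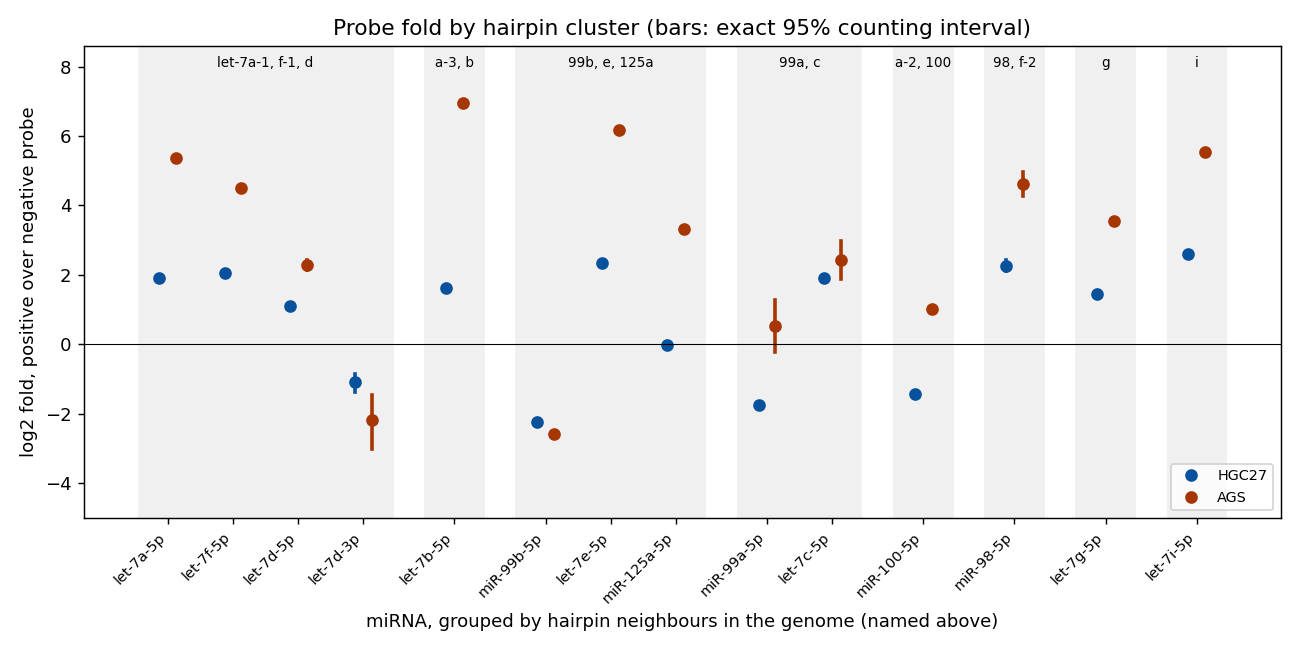
The log2 fold with the positive over the negative probe from counts and divisors, blue for HGC27 and orange for AGS, with strands grouped by neighbouring hairpins (named at the top) and vertical bars for the exact 95% counting interval, which is hidden by the point where counts are high. miR-99b-5p lies below 0 in both lines beside let-7e-5p (ratios of 0.209 against 5.11 in HGC27), and let-7d-3p lies below 0 beside let-7d-5p. miR-125b-5p, made from hairpins of 2 chromosomes, is not drawn.

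Between the lines, most members were higher in HGC27 with the negative probe and fewer with the positive probe. With the negative probe all 9 members were at least 2-fold higher in HGC27 than in AGS, where 85.8% of entries were, so this count was near the background. The median log2 ratio of HGC27 over AGS was 3.05 against 2.81 over all entries. With the positive probe 4 members were higher in HGC27, where 74.7% of entries were, and 2, let-7b-5p and let-7e-5p, were lower, where 13% were. The median was then 0.58 against 2.58 over all entries. The medians between the lines depended on the scaling. When miR-372-3p was left out of the table totals, the median went from 2.77 to 0.39 with the negative probe. With the positive probe it went from 0.19 to -0.48. Under TMM scaling the 2 medians became 0.015 and -1.67, against 0.73 and 1.10 over all entries. With the negative probe the family lay 0.24 above the median of all entries by the deposited score. It lay below that median under the 4 other scalings, at -0.33 with table totals and -0.72 under each of the others. A scale factor alone shifts all log2 ratios equally. This position can therefore move only through the added 1 and the rounding of the score, which weigh most on entries with few counts.

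let-7c-5p had the largest difference between the lines of the 9 members with both probes, with log2 ratios between 5.85 and 9.05 over the settings tried. Its score was higher in HGC27 than in AGS by 450-fold with the negative probe (exact 95% CI of the fold 371 to 721) and by 352-fold with the positive probe (301 to 434), and with the negative probe the next member, let-7a-5p, was 41.4-fold higher. In the edgeR fit, with both probes standing in for replicates, let-7c-5p had a line effect of 5.87 on the log2 scale (SE 1.54, adjusted p = 0.00118), and it was the only one of the 10 members called, where 22.1% of entries were called higher in HGC27. Its call was lost when no filter on low counts was used (edgeR adjusted p = 0.107). With library totals in place of TMM, edgeR also called miR-98-5p (adjusted p = 0.0489) and let-7d-3p (0.0212) higher in HGC27. At that setting it called 154 of 271 entries higher in HGC27, so such calls were common. The chromosome 21 neighbour of let-7c-5p, miR-99a-5p, had a line effect of 6.85 in the main fit (edgeR adjusted p = 0.000362). miR-125b-5p, also partly from that transcript, had one of 5.88 (edgeR adjusted p = 0.000533). On chromosome 19, by contrast, let-7e-5p had a line effect of -2.81 (SE 1.71, edgeR adjusted p = 0.231). The DESeq2 Wald test called let-7e-5p lower in HGC27 (adjusted p = 0.00955), as it did 27 of 271 entries. To 21 of the 271 it gave no adjusted p. let-7e-5p was also the member lowest in HGC27 relative to AGS with both probes.

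Other miRNAs with a profile over the 4 libraries like that of the family were found by the Euclidean distance between log2(score + 1), centred on each miRNA's own mean, and the median profile of the 9 members, among 180 known miRNAs with at least 100 counts in all. The nearest was miR-24-3p at a distance of 0.675, with scores of 5716 and 15534 in HGC27 and of 487 and 6433 in AGS. It was followed by miR-6747-3p (0.699), miR-219a-1-3p (0.788), miR-296-3p (1.23) and miR-22-3p (1.26). In AGS with the negative probe miR-6747-3p had 3 counts, miR-219a-1-3p had 2, and miR-296-3p had 8, so their likeness rests on few counts there. Within the family let-7f-5p lay nearest to the median profile (0.356) and let-7c-5p farthest (6.76), farther than let-7d-3p (5.06).

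The FN1 3′-UTR of the annotated transcript used here (GENCODE v29, chr2:215360454-215361554 of GRCh38, minus strand, 1101 bases after the stop codon) was searched for the letters opposite the family seed. CTACCTC, opposite bases 2 to 8, had 0 matches, and 6.30% of 9472 3′-UTR windows of the same length held it. The shorter TACCTC, contained in it, had 0 matches, with 18.6% of windows holding it. GAGGTAG, the letters to search for in the case of an antisense probe, had 0 matches against 5.27% of windows. These counts say only that the letters are not in this stretch, and the exact extent of the probes is not given in the sources used here. Only exact matches were searched for, so imperfect pairing was not examined. The paper reports a predicted let-7i-5p binding site in the FN1 3′-UTR, and a reporter carrying this 3′-UTR that a let-7i-5p mimic lowered. It also reports that mutant mimics left the reporter unchanged and that the mimic lowered FN1 3′-UTR expression. In tumour nodules of mice it reports co-localization of the FN1 3′-UTR and let-7i-5p.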

How the data were processed

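MiRNAs were sequenced from pull-down material of 2 lines and 2 probes, 1 library per group, with groups taken from the labels. The authors deposited, for each mature miRNA, the raw counts of its tags and a normalized score, described as tags per 1000000 aligned miRNA tags and rounded to whole numbers. The submitters' processing notes name cutadapt 1.9.3, Novoalign 3.02.12 and hg38, and the methods count tags mapped to mature miRNAs. The miRNA database release is not given in the sources used here. The 901 rows were collapsed to 843 names and blanks were taken as 0. The lowest count listed was 2. Divisors of 2763261 to 7179162 tags were recovered from counts and scores (5 to 10 scores per library did not match) and exceed the table totals, for which the sources give no reason.

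Ratios used score + 1, with a fold of 2 as the call. Folds, shares and strand balances carry 95% intervals from counts, exact or Wilson. With 1 library per group no test was made within a line. Counts of all 4 libraries were fitted in edgeR 4.0.16 (R 4.3.3) with TMM, filterByExpr, and line and probe as factors, with Benjamini-Hochberg adjustment over 271 entries. DESeq2 1.42.0, limma-voom (limma 3.58.1), other scalings, filters and pseudocounts were alternatives. Named miRNAs were all 10 members, neighbouring hairpins and opposite strands, miR-372-3p, and the 5 nearest profiles. Members and lists were chosen with earlier results of these data known. Labels do not say that libraries came from separate cultures, and all p-values rest on these 4 libraries only. In the main edgeR fit they use a dispersion pooled over the entries tested, not the spread of each miRNA.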

Additional observations from a re-analysis of the deposited data

Results flagged for a closer look

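Among the strands beside let-7 hairpins, miR-100-5p was flagged because its ratio moved in opposite directions in the 2 lines, with a log2 ratio of positive over negative probe of -1.44 in HGC27 and 1.00 in AGS. miR-125b-5p was flagged for the same reason, with -0.28 in HGC27 and 1.00 in AGS, the latter on 24 and 31 counts. miR-99a-5p also had a negative value in HGC27, -1.75, and a positive one in AGS, 0.42, but the latter, on 35 and 30 counts, was within counting error of no change (exact 95% interval of the fold 0.854 to 2.41). No difference between the lines was tested here, as each rests on 1 library per group. The AGS values of miR-100-5p and miR-125b-5p turned negative when libraries were scaled to totals without miR-372-3p, to -0.50 and -0.37, and under the other scalings they stayed above 0. The part of miR-372-3p in these differences was not tested otherwise.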

How the results depend on the processing

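No paired analysis was possible because the labels number no replicates, and with a single library per group the number 1 is only a name. The line as a term of the edgeR fit already sets the probes against each other within a line. Leaving out a line or a probe gives the ratios within 1 line or 1 probe, which carry no test. No other entry had the family seed, so adding seed relatives gave no value. The median log2 ratio of the 9 members in HGC27 was 2.01 with table totals, 1.98 under TMM, 2.10 with DESeq2 size factors, 2.01 without miR-372-3p and 1.96 with members 1 base apart merged. In AGS it was 4.76, 3.87, 4.23, 3.09 and 4.46 in the same order, 4.57 with a pseudocount of 0.1 and 5.37 over members with at least 100 counts. After the median over all entries was subtracted, the family stood 2.02 to 2.04 higher in HGC27 and 4.04 to 4.09 higher in AGS over the 5 scalings. This subtraction cancels any scale factor, apart from the added 1 and rounding, so the likeness over the scalings was set in advance. At a ratio of at least 4, 4 members were called in HGC27 and 9 in AGS, and without miR-372-3p 7 in AGS were past a ratio of 2. For HGC27 over AGS with the negative probe the median was 2.77 with table totals, 0.015 under TMM, -0.052 with DESeq2 size factors, which reversed it, 0.39 without miR-372-3p, 2.93 with a pseudocount of 10, and 2.70 both with members merged and over those with at least 100 counts. With the positive probe it was 0.19, -1.67, -1.98 and -0.48 under the 4 other scalings, so the direction of the family between the lines depends on the scaling.

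The edgeR fit called 19 miRNAs for the probe (55 at an unadjusted p under 0.05). With DESeq2 size factors it called 32, one of them miR-98-5p (edgeR adjusted p = 0.0185), and the DESeq2 Wald test called 49. There were 0 calls with library totals in edgeR, limma-voom, no filter, at least 10 counts in every library and no covariate, with 52, 72, 66, 16 and 17 at an unadjusted p under 0.05. For the line, 81 calls became 169 with library totals, 15 with at least 10 counts in every library and 0 with no filter (95 at an unadjusted p under 0.05). With library totals the line effect reversed to 0.59 for let-7b-5p, 1.78 for let-7d-5p, 1.48 for let-7f-5p, 1.11 for let-7g-5p, 0.73 for let-7i-5p and 2.27 for miR-98-5p. It also reversed with no covariate, to -0.14 for let-7a-5p and -0.079 for let-7d-3p, and to 0.12 for miR-98-5p with at least 10 counts in every library. The cause was not tested.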
